A study of Mus musculus with 13 samples.

Results

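The binding of STAG2 was compared with that of CTCF in proliferating NU1 cells, using the 2 STAG2 and the 2 CTCF chromatin immunoprecipitation (ChIP-seq) libraries made from them, 4 of the 13 samples of the series and 4 of the 12 with a list of peaks. NU1 is a wild-type mouse urothelial cell line that became immortal on repeated passage, so each result is about 1 line. All cells grew in medium with serum and EGF. The 4 libraries came from proliferating cells. The STAG1 antibody was also used on such cells, and all 3 antibodies on quiescent cells, which were grown to confluence and then kept with 1 uM rosiglitazone and 0.5 uM erlotinib. The STAG antibodies are those of Remeseiro et al. and the CTCF antibody came from Millipore. Each precipitation took 25 ug of antibody and 550 ug of chromatin, and each group had 2 biological replicates.

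STAG2 is a subunit of cohesin, the ring-shaped complex that extrudes loops of DNA and holds sister chromatids together, and cells also make a form of cohesin with the related subunit STAG1. CTCF is a zinc finger protein that binds a long, asymmetric DNA motif. Cohesin that travels along the chromosome is often halted at CTCF, on the side of the protein's N terminus, and STAG subunits take part in the contact. Cohesin is also found at promoters and enhancers without CTCF. STAG2 is lost by mutation in a part of bladder cancers.

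The deposited lists held 47295 and 45582 STAG2 peaks and 57528 and 55168 CTCF peaks. A site was a set of overlapping peaks over the 4 libraries. Of 85651 sites, 24742 were called in all 4 and are named shared. Another 6443 were called in both STAG2 libraries and in neither CTCF library (STAG2 only), and 13629 in both CTCF libraries and in neither STAG2 library (CTCF only). The remaining 40837 lay in other combinations of libraries, and most of them in 1 library alone. The fold enrichment of a peak is the authors' value, and its percentile within its own list is used to compare strength between lists.

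The core of the CTCF motif, 12 bases of which some may be any base, was searched on both strands of the RefSeq promoters of GRCm38.p6, the build called mm10, each with 250 bases before and 50 bases after a start. The following stretches are shown because the position of the summits along this core is described further on. They are the core, in capitals, with 30 bases on each side, from the 6 shared promoters with the highest mean fold percentile among those with 1 core that lay whole before the start, and each is printed on the strand that matched the core.
Gm46521, chr15:80225387-80225458, minus strand: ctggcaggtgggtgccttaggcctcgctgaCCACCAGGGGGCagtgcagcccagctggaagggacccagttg
Zfp638, chr6:83914241-83914312, minus strand: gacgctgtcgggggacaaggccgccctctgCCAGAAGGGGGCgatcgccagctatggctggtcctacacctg
Mterf1a, chr5:3894004-3894075, plus strand: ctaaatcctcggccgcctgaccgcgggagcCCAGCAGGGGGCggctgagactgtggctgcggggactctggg
Gm52265, chr16:5306744-5306815, plus strand: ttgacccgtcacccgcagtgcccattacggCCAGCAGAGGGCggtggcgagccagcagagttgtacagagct
Gm13404, chr2:33973559-33973630, plus strand: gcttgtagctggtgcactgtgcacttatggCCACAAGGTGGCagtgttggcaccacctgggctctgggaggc
Rab32, chr10:10558250-10558321, minus strand: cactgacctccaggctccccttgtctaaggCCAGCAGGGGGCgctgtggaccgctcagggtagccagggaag

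The 3 CTCF only promoters chosen in the same way carried the core as follows.
Aox3, chr1:58112957-58113028, minus strand: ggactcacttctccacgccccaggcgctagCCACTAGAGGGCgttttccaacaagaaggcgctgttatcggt
Dpep3, chr8:105979555-105979626, minus strand: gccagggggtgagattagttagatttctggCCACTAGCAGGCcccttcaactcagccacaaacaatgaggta
Gm6306, chr2:104710169-104710240, plus strand: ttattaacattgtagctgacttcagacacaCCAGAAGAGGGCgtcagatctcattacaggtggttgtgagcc
The promoters with the strongest STAG2 only sites are shown by their 120 bases before the start, on the strand of the gene. Capitals mark any match to the 8 motifs searched, which were the CTCF core, AP-1 (TGANTCA), TEAD (GGAATG), E2F (TTTNGCGC), ETS (CCGGAAG), YY1 (AAGATGGC), a GC box (GGGCGG) and the cell cycle element CHR (TTTGAA).
Ift57, chr16:49699174-49699293, plus strand: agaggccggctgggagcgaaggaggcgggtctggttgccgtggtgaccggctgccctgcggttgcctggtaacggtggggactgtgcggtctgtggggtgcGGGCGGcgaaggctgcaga
Arrdc4, chr7:68749239-68749358, minus strand: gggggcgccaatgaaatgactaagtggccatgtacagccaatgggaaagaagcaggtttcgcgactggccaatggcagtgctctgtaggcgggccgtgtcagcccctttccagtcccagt
Gmeb1, chr4:132261550-132261669, minus strand: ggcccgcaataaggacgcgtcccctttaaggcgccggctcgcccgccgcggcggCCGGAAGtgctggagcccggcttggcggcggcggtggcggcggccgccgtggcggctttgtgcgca
Pnpla6, chr8:3515291-3515410, plus strand: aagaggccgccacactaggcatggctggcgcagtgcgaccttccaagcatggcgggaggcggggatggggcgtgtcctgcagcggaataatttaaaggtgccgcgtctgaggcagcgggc
Of these 4 stretches, the one of Ift57 held a GC box and the one of Gmeb1 an ETS match, and none held the CTCF core.

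The strongest peaks of each antibody were almost always peaks of the other as well. In the whole lists STAG2 peaks also had CTCF more often than CTCF peaks had STAG2, but with 20000 peaks in every library this difference was 0.305 percentage points (exact permutation p = 1.00). Of the STAG2 peaks, 61.6% and 58.7% in the 2 libraries matched a peak in both CTCF libraries, a mean of 60.1% ± 2.07 (SD, n = 2). Of the CTCF peaks, 48.5% and 49.2% matched both STAG2 libraries, a mean of 48.8% ± 0.447 (SD, n = 2). Both STAG2 libraries lay above both CTCF libraries, by 11.3 percentage points on average. The exact two-sided permutation test over the 4 libraries gave p = 0.33, as small as 6 arrangements allow, so no comparison of 2 libraries with 2 could pass 0.05 here. The CTCF lists were also longer (log2 ratio of STAG2 over CTCF peaks -0.28, exact permutation p = 0.33). When the CTCF lists alone were limited to their 20000 highest peaks, the difference reversed to -46.9 points (exact permutation p = 0.33). With only the STAG2 lists limited in this way it was 57.7 points. These 2 directions follow the list lengths. It was 4.23 points without STAG2 replicate 2, 6.20 without STAG2 replicate 1 and 18.1 without CTCF replicate 2.

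Sharing rose with fold enrichment along the STAG2 lists, and in the CTCF lists it first fell and then rose. Each list was cut by fold into 10 bins of about equal size, with bin 1 the lowest. In STAG2 replicate 1, 28.3% of the peaks in bin 1 matched both CTCF libraries, and 98.9% did in bin 10. STAG2 replicate 2 ran from 21.5% to 98.3%. CTCF replicate 1 was at 33.5% in bin 1, 25.3% in bin 3, 30.8% in bin 5 and 97.9% in bin 10. CTCF replicate 2 was at 33.7% in bin 1, 21.3% in bin 2 and 97.1% in bin 10. From bin 2 to bin 10 both STAG2 libraries lay above both CTCF libraries. Of the peaks in bin 10, only 15 and 28 in the STAG2 libraries and 31 and 50 in the CTCF libraries matched no library of the other antibody.

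**Figure D1:**
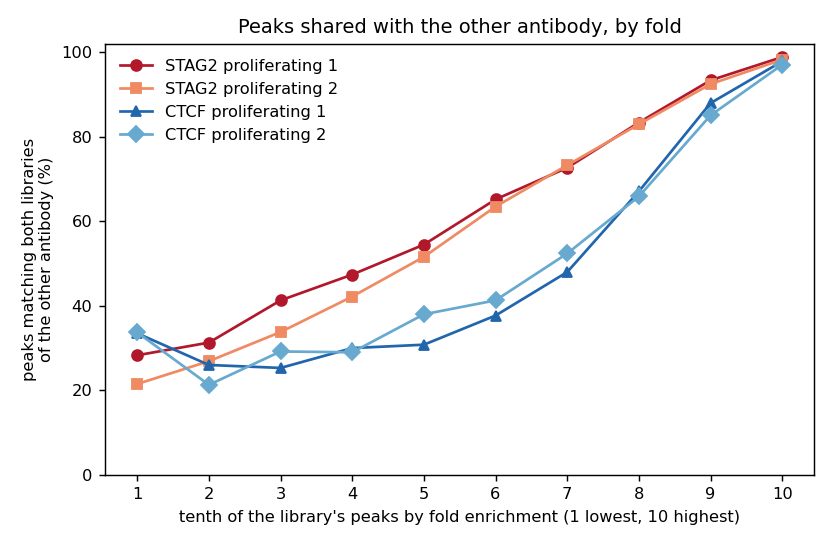
Share of each library's peaks (vertical axis, percent) that matched a peak in both libraries of the other antibody, by bin of the library's own peaks ranked by fold enrichment (horizontal axis, bin 1 lowest, 10 bins). Each line is 1 library. All 4 libraries lie between 97.1% and 98.9% in bin 10, and in bin 5 the STAG2 libraries lie at 54.5% and 51.6% and the CTCF libraries at 30.8% and 38.0%.

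Counted as sites, the 24742 shared sites were 71.5% of the 34606 sites with STAG2 in both libraries and 56.8% of the 43569 with CTCF in both. STAG2 only sites were 18.6% of the former, and the remaining 9.89%, 3421 sites, had CTCF in 1 library. CTCF only sites were 31.3% of the latter, and 11.9%, 5198 sites, had STAG2 in 1 library. The shared sites ranked high and the sites of 1 antibody ranked below the middle of their lists. The median percentile of a shared site was 71.6 and 70.3 in the STAG2 lists and 76.0 and 73.8 in the CTCF lists. STAG2 only sites had medians of 37.3 and 39.6, and CTCF only sites of 42.8 and 43.5. These counts depended on the list lengths: with 20000 peaks in every library there were 10467 shared, 4194 STAG2 only and 4284 CTCF only sites.

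The shared sites named next are the highest of those at a gene end, which is within 1 kb of either end of a protein-coding gene. The highest of the genome was at Ivd, which encodes isovaleryl-CoA dehydrogenase of leucine breakdown, on chromosome 2 from 118883045 to 118883968. Its fold was 76.3 and 76.9 for STAG2 and 89.8 and 110 for CTCF. At Piezo1, which encodes a mechanically gated ion channel, the folds were 72.0 and 74.2 for STAG2 and 88.0 and 100 for CTCF (chromosome 8, 122550076 to 122552118). At Irak2, a kinase of interleukin-1 receptor signalling, they were 78.1 and 63.9, then 84.8 and 87.9. At Col6a2, which encodes a chain of collagen VI, they were 73.9 and 71.9, then 71.9 and 83.8. The other sites of this kind lay at Kiss1r, Scnn1g, Adamtsl5, Tmem121, Cdkn2aipnl and Ccdc124. All 10 were called in every STAG1 proliferating, STAG2 quiescent and CTCF quiescent library.

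The strongest STAG2 only site was at the start of Ift57, which encodes a protein of intraflagellar transport in cilia, on chromosome 16 from 49698727 to 49699739, with folds of 39.9 and 50.1. Arrdc4, an arrestin family gene, followed with 34.5 and 40.8 (chromosome 7, 68748430 to 68749611). Gmeb1, a gene for a protein that binds glucocorticoid modulatory elements, had 27.3 and 26.7 (chromosome 4, 132260937 to 132261977). A site at the 3' end of Mcoln1, a lysosomal channel gene, and the start of Pnpla6 had 26.3 and 28.1. In both libraries these 4 sites were above the 90th percentile of the list. A site at the start of Zbtb22 and an end of Daxx, whose protein deposits a histone variant, had 24.0 and 26.0. Others among the highest had folds from 19.3 to 25. They lay at Tmem241, at Hexim1, which encodes a protein that holds back P-TEFb, at Pias4, a SUMO ligase gene, and at Inpp5j. Each of the sites named here was called in both quiescent STAG2 libraries. In quiescent CTCF the sites at Ift57 and Gmeb1 were called in 1 library, and the others named here in none.

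The strongest CTCF only site lay inside Ctcfl, the gene of the testis paralog of CTCF, on chromosome 2 from 173096927 to 173097923, with folds of 49.3 and 64.3. At a gene end the highest was at Itpr3, which encodes an inositol trisphosphate receptor, and Uqcc2, with 44.4 and 42.4 (chromosome 17, 27120457 to 27121794). Rpl36a, a ribosomal protein gene on the X chromosome, had 50.9 and 33.9, and Smpd4, a sphingomyelinase gene, had 32.6 and 44.3. Rhbdf2, Togaram2, Hyou1, an endoplasmic reticulum chaperone gene, Lmx1b, a LIM homeodomain gene, Fam243, Gm12657 and Ppp1r8 completed the 10, with folds from 22.0 to 38.4. All 10 and the site in Ctcfl were called in both quiescent CTCF libraries. The sites at Rhbdf2 and Ppp1r8 were called in both quiescent STAG2 libraries and those at Rpl36a, Smpd4, Hyou1, Lmx1b and Gm12657 in 1, so 7 of the 10 had a quiescent STAG2 peak. The site in Ctcfl had none. A proliferating STAG1 peak was found at 8 of the 10, all but Fam243 and Gm12657, and at the site in Ctcfl.

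Where both proteins were called, their ranks agreed less well than those of replicates. Spearman's rho of the fold over the 24742 shared sites was 0.86 between the STAG2 replicates and 0.89 between the CTCF replicates. Between a STAG2 and a CTCF library it was 0.61, 0.53, 0.55 and 0.53. The sites are the same in all 6 pairs, and the libraries share the cell line and may share the background sample, so no p is given. The mean percentile over the STAG2 libraries was within 10 points of that over the CTCF libraries at 42.7% of the shared sites. For pairs of single libraries this was 39.5% to 44.9% between antibodies, and 62.2% and 65.6% between replicates. A STAG2 library ranked over 50 points above a CTCF library at 858 to 1070 sites and below it at 798 to 1011. Replicates differed this much, by direction, at 121 and 95 sites for STAG2 and 178 and 91 for CTCF. By the means, STAG2 ranked over 50 points above CTCF at 643 shared sites and over 50 points below it at 646.

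Sites of the first kind were at the start of Yod1, a deubiquitinase gene, with STAG2 folds of 23.6 and 32.1 and CTCF folds of 4.31 and 4.44, and at Hyal2, a hyaluronidase gene, with 36.3 and 38.1 against 3.93 and 5.37. The ends of Rasal3 and Wiz had 29.8 and 31.0 against 4.74 and 4.33, those of Ankrd13d and Ssh3 17.6 and 17.0 against 3.00 and 3.00, and Bin1 15.7 and 22.0 against 3.40 and 3.67. Sites of the second kind were at Crebzf, a bZIP factor gene, with STAG2 folds of 3.34 and 2.67 and CTCF folds of 31.4 and 36.2, and at Zbp1, a sensor of Z-form nucleic acid, with 3.67 and 3.67 against 43.4 and 29.0. Thnsl2 had 4.25 and 3.50 against 30.7 and 34.0, Sf3b2, a splicing factor gene, 3.86 and 3.43 against 22.3 and 19, and Xrra1 4.99 and 3.99 against 32.9 and 36.9. At none of these 10 sites did the folds of the 2 antibodies overlap, which the choice of the sites by their difference fixed.

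**Figure D2:**
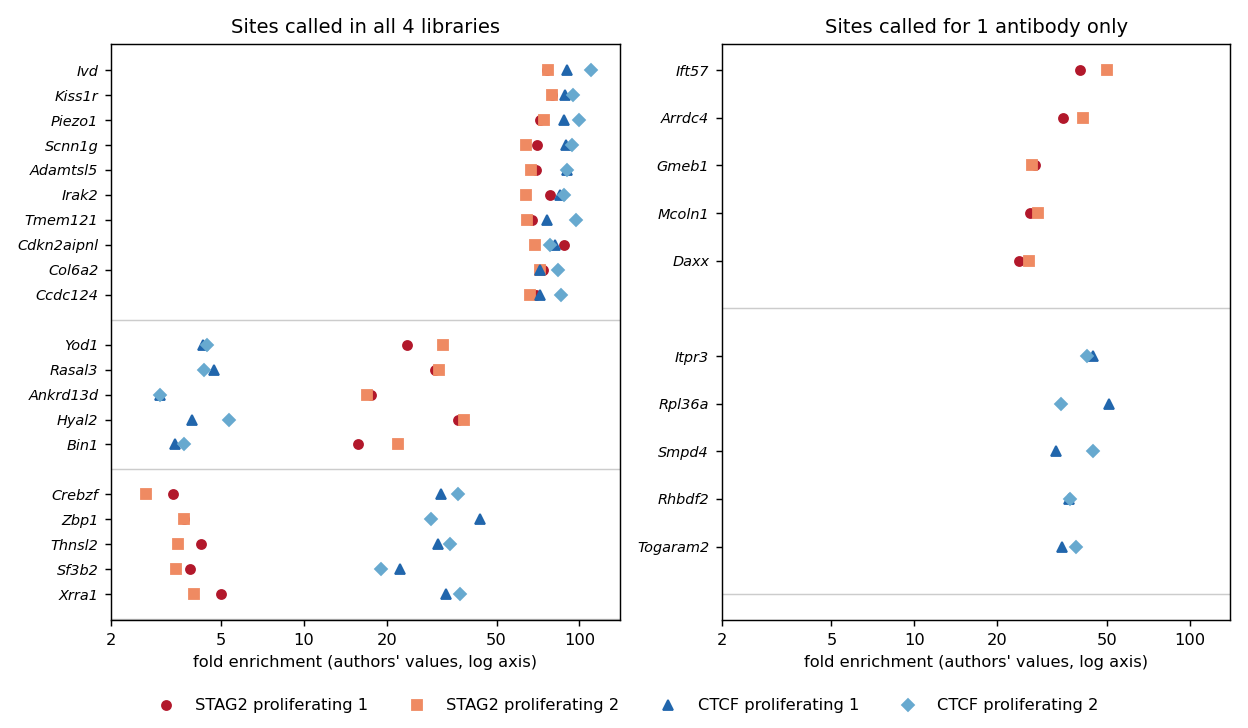
Fold enrichment (horizontal, authors' values, log axis) of the named sites in each of the 4 libraries, 1 row per site. Left, the 10 highest shared sites at gene ends, then the 5 with STAG2 ranked farthest above CTCF and the 5 farthest below. Right, the 5 highest STAG2 only and the 5 highest CTCF only sites at gene ends, where the other antibody has no point. Shared sites at the top lie between 63.9 and 110, and the STAG2 only sites shown between 24.0 and 50.1.

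Among the shared sites, though not over all CTCF peaks, weak CTCF went with a gene end. Of the shared sites with a mean CTCF percentile up to 25, 61.6% lay at a gene end (2063 sites), then 50.6%, 36.2% and 33.1% in the next bands of 25 points up to the highest (12062 sites). Ranked by STAG2 in the same way, the shares were 40.7%, 38.9%, 42.5% and 36.5%, with no such order. Over all CTCF peaks, cut by fold into bins as above, the share at a gene end was highest in bin 10. There it was 31.8% in CTCF replicate 1 and 36.3% in CTCF replicate 2, beside 26.4% and 28.9% in bin 1. Taken by whole class, 39.2% of shared, 17.3% of STAG2 only and 8.42% of CTCF only sites lay at a gene end. The median widths of these sites were 869, 590 and 527 bp, and the part of width in the shares was not tested. Shared sites lay a median of 6985 bp from the nearest start in the promoter table, STAG2 only sites 13086 bp and CTCF only sites 15196 bp. Outside genes lay 27.8%, 40.8% and 38.2% of the 3 classes. A STAG2 only site lay a median of 6329 bp from the nearest site with CTCF in either library, and a CTCF only site 6886 bp from the nearest with STAG2 in either. The promoter table has no entry on chromosome 18, so the distances leave out the 643 shared, 191 STAG2 only and 340 CTCF only sites there.

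Taken per library, 14.5% ± 0.717 (SD, n = 2) of the STAG2 peaks that matched no CTCF library and 8.24% ± 0.515 of the CTCF peaks that matched no STAG2 library lay at a gene end. STAG2 exceeded CTCF by 6.24 points (p = 0.33 by exact permutation, as small as the design allows). The excess was 4.51 points without STAG2 replicate 2 and 10.2 points without CTCF replicate 2. The difference was 23.1 points with 20000 peaks in every list and 11.1 points when peaks of -log10 q under 5 were dropped. Within 1 kb of a start in the promoter table the shares were 14.3% ± 0.263 and 5.20% ± 0.449, and 14.7% ± 0.318 and 5.34% ± 0.485 without chromosome 18 and the mitochondrial chromosome, which have no entry there. With the STAG2 lists limited to 20000 peaks and whole CTCF lists, an alternative chosen after seeing the data that left 831 STAG2 only sites, the difference at gene ends reversed to -1.41 points (exact permutation p = 0.667).

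Some stretches gathered sites of 1 antibody. When sites less than 12.5 kb apart were joined, 240 of 5174 STAG2 only stretches held 3 or more sites, and 4295 were single sites. The most, 13 sites, lay in 39737 bp of Smad3, a signal transducer of TGF-beta, on chromosome 9 from 63715807 to 63755543, and this stretch held no shared site among its 21 sites of any kind. Ets2, an ETS factor gene, had 11 STAG2 only sites and 1 shared site, and Sdc1, the syndecan-1 gene of epithelial cell surfaces, 8 and 0. Tns4, a tensin gene, had 7 and 0, and Dusp7, a phosphatase gene of the MAP kinase pathway, 7 and 2. For CTCF only sites 545 of 10746 stretches held 3 or more, and 8676 were single sites. The most sites, 11, lay in Bptf, a chromatin remodelling gene, with 3 shared sites between them. The others lay on the Y chromosome near Gm52481 (10 sites), near Gtf3a (8), at Morn3 (8) and near Rack1 (7).

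The summits of STAG2 and CTCF at shared sites lay almost as close together as those of replicates. The median distance was 32 bp between the STAG2 replicates and 25 bp between the CTCF replicates. Between a STAG2 and a CTCF library it was 35, 38, 39 and 41 bp, above both replicate pairs in all 4 cases. The mean between antibodies exceeded the mean within them by 9.75 bp (exact one-sided permutation p = 0.33, as small as 3 pairings allow), and by 5.50 bp without CTCF replicate 2 and 15.5 bp without STAG2 replicate 1. Distances shrank as the sites ranked higher: in the lowest 20% of the shared sites they were 83 to 90 bp between antibodies, 72 bp between STAG2 and 60 bp between CTCF replicates, and in the highest 20% they were 20 to 21 bp, 15 bp and 14 bp. Summits over 500 bp apart were found at 4.86% to 5.06% of the sites between antibodies and at 2.30% and 2.42% between replicates.

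**Figure D3:**
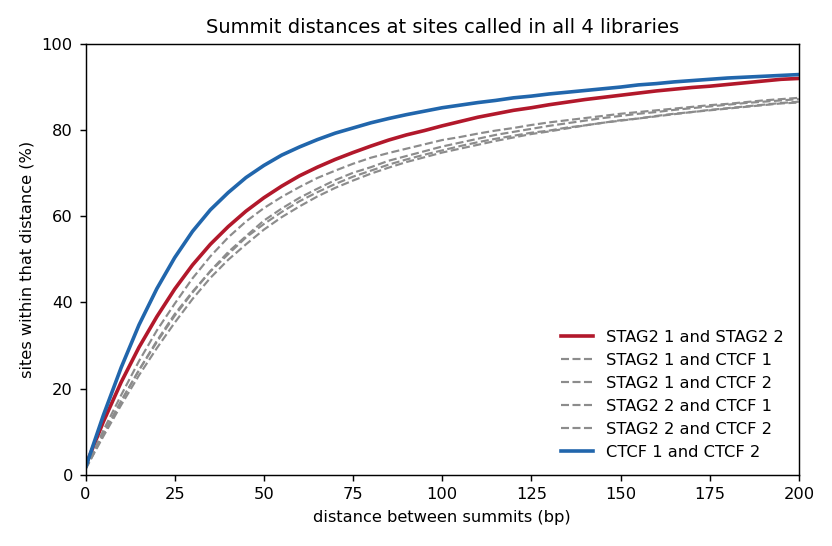
Share of the 24742 shared sites (vertical, percent) whose summits in 2 libraries lay within the distance on the horizontal axis (bp). Solid lines are replicates of 1 antibody and dashed grey lines the 4 pairs of a STAG2 and a CTCF library. Within 50 bp lie 71.8% of the sites for the CTCF replicates, 64.3% for the STAG2 replicates and 56.9% to 61.9% for the pairs of unlike antibodies.

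Read along the CTCF core, the small distance had a direction. There were 369 shared promoters with 1 core, and at 241 of them all 4 summits lay within 250 bp of its centre. Downstream means toward the 3' side of the core as printed above. The median STAG2 summit lay 23.5 and 24.5 bp downstream of the centre, and the median CTCF summit 3.5 and 6.5 bp. Taken promoter by promoter, the STAG2 summit lay downstream of the CTCF summit by a median of 17, 18, 16 and 15 bp in the 4 pairs of libraries, at 67.2% to 72.6% of the promoters. The second replicate differed from the first by -3 bp for STAG2 and 1 bp for CTCF. At Gm52265 the offsets were 54.5 and 35.5 bp for STAG2 and 18.5 and 15.5 bp for CTCF. At Zfp638 all 4 summits lay upstream, at -28.5 and -17.5 bp, and -35.5 and -32.5 bp. At Gm13404 and Rab32 both STAG2 summits lay downstream of both CTCF summits. At Gm46521 the offsets were 18.5 and 24.5 bp for STAG2 and 30.5 and 0.5 bp for CTCF. At Mterf1a they were -2.5 and -1.5 bp, and 25.5 and -20.5 bp. In these last 2 promoters the CTCF replicates lay on either side of STAG2.

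The difference over these 4 libraries was 19 bp (exact two-sided permutation p = 0.33, the smallest possible). The search for a direction along the core was made after other results had been seen, so the 8 libraries that had not prompted it were then measured at the same cores. Their 6 STAG1 and STAG2 libraries had medians from 19 to 23.0 bp, a mean of 21.7 bp ± 1.57 (SD, n = 6), and the 2 quiescent CTCF libraries 2.5 and 5.0 bp, a mean of 3.75 bp ± 1.77 (SD, n = 2). The groups did not overlap, and STAG exceeded CTCF by 17.9 bp (p = 0.0357 by exact two-sided permutation, as small as 28 arrangements allow). This test set 3 STAG groups, STAG1 in both states and quiescent STAG2, against 1 CTCF group. Within the quiescent cells alone the 4 STAG libraries exceeded the 2 CTCF libraries by 17.5 bp (exact permutation p = 0.0667, as small as 15 arrangements allow). The cores themselves were chosen at sites called in the 4 proliferating libraries. The direction of the gene mattered to the values: at 158 cores that pointed with the gene the STAG2 medians were 34.5 and 30.5 bp and the CTCF medians 9.5 and 11.5 bp, and at 83 cores that pointed against it they were -2.5 and -1.5 bp, and -7.5 and -13.5 bp. The STAG2 summit stayed downstream of the CTCF summit in both, by medians of 16.5 to 23.5 bp and of 5 to 13 bp.

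**Figure D4:**
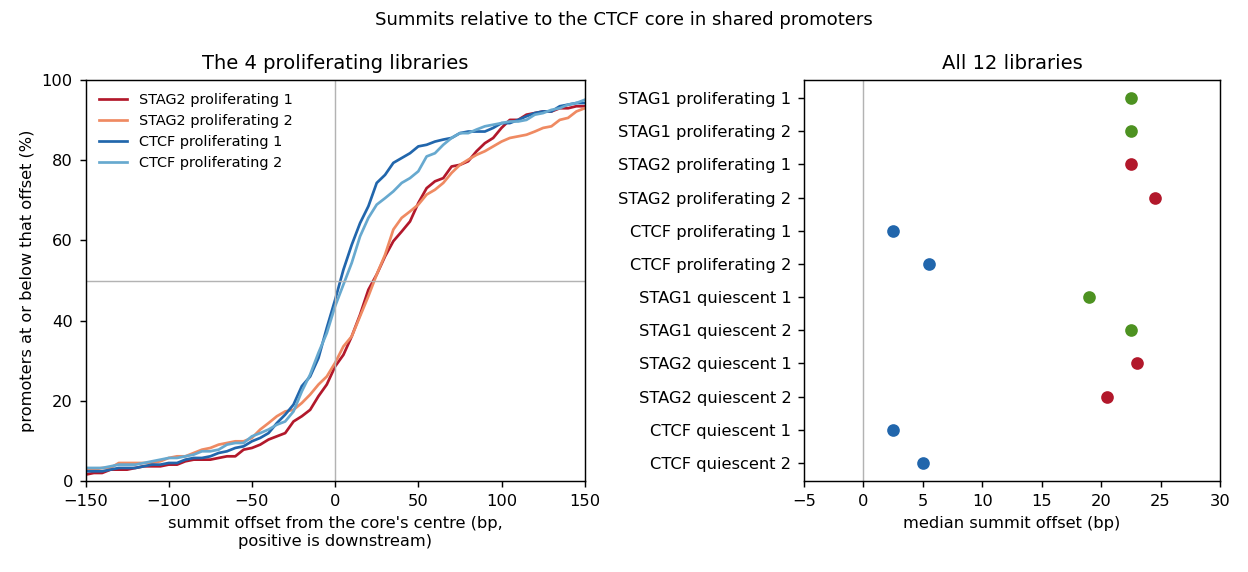
Position of summits along the CTCF core in shared promoters. Left, share of the 241 promoters (vertical, percent) with a summit at or below the offset on the horizontal axis (bp from the centre of the core, positive downstream), 1 line per proliferating library. Right, median offset in each of the 12 libraries, where the 8 STAG libraries lie between 19 and 24.5 bp and the 4 CTCF libraries between 2.5 and 5.5 bp. The right side takes every core with a summit within 250 bp in that library, so its medians differ slightly from those on the left.

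The core was not frequent in promoters of any class. It was found in 2.43% of all 32817 promoters, in 4.07% of the 10232 at shared sites, 1.65% of the 1089 at STAG2 only sites and 7.89% of the 266 at CTCF only sites (21 promoters), and in 1.38% of those with no site. Per library it was in 1.87% and 1.56% of the promoters under STAG2 peaks without CTCF and in 8.91% and 7.77% of those under CTCF peaks without STAG2, with no overlap. The mean GC content was 63.8%, 57.4% and 56.4% in the 3 classes and 53.8% over all promoters, and its part in these shares was not tested. The AP-1 motif was in 9.83% of STAG2 only promoters, 4.23% of shared ones, 4.51% of CTCF only ones, 9.91% of promoters with no site and 7.81% of all. The ETS motif was in 16.1% of STAG2 only, 17.6% of shared, 7.52% of CTCF only and 8.86% of all promoters, and the GC box in 53.4%, 70.8%, 35.0% and 35.6%. A match describes these letters only, and the GC box and the ETS motif are rich in G and C like the shared promoters.

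Libraries that had not been used to form the classes kept them apart. A peak of a proliferating STAG1 library was found at 92.2% and 97.0% of the shared sites, at 48.0% and 67.5% of the STAG2 only sites and at 12.7% and 14.9% of the CTCF only sites. The difference between the last 2 classes was 44.0 points and had the same sign in both STAG1 libraries (exact sign-flip permutation p = 0.5, as small as 2 libraries allow). It rested on calling sites in both STAG2 libraries: without STAG2 replicate 1 it was 11.4 points and without STAG2 replicate 2 it was 22.0 points. STAG2 in quiescent cells was called at 91.8% ± 1.79 (SD, n = 2) of the shared sites, 56.4% ± 2.83 of the STAG2 only and 3.82% ± 1.44 of the CTCF only sites. CTCF in quiescent cells was called at 94.2% ± 2.12, 7.92% ± 3.19 and 81.9% ± 9.83. Of the STAG2 only sites, 86.6% had no peak in either quiescent CTCF library, and of the CTCF only sites 93.6% had none in either quiescent STAG2 library.

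Much of the shortfall from 100% went with low rank. Among the 1686 STAG2 only sites with a mean percentile up to 25, STAG1 was called at 25.9% and 51.4% and quiescent STAG2 at 40.5% and 35.0%. Among the 236 above the 75th percentile, STAG1 was called at 89.8% and 95.8%, quiescent STAG2 at 99.2% and 96.6% and quiescent CTCF at 6.78% and 18.6%. The 604 CTCF only sites above the 75th percentile had quiescent CTCF at 99.7% and 100%, STAG1 at 28.1% and 45.0% and quiescent STAG2 at 13.6% and 10.6%. Above the 75th percentile the sites of both classes were nearly all called again for the protein that defined them, and mostly not for the other. The highest CTCF only sites at gene ends, named above, mostly did have a peak in at least 1 quiescent STAG2 library. Sites with STAG2 in both libraries and CTCF in 1 lay between the classes, with quiescent CTCF at 35.6% and 52.5%.

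**Figure D5:**
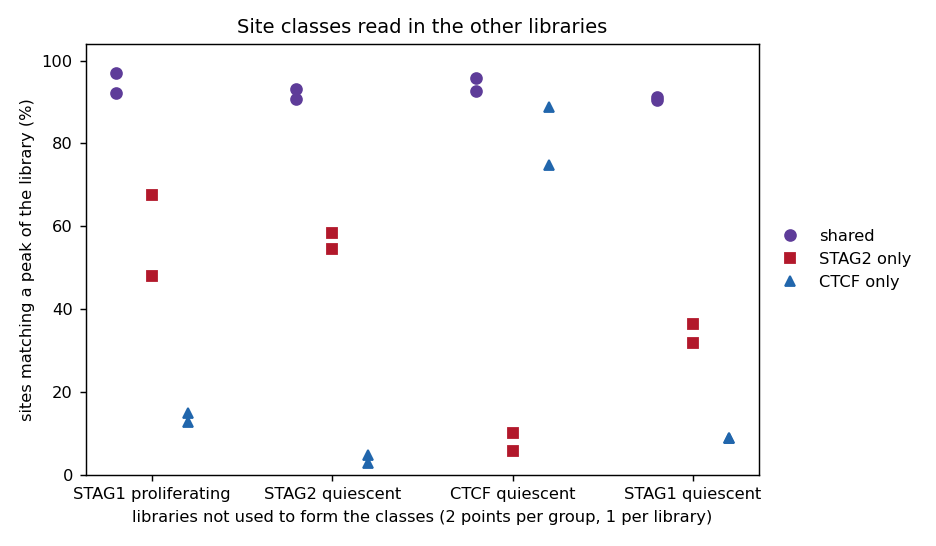
Share of the sites of each class (vertical, percent) that matched a peak in libraries not used to form the classes, 1 point per library and 2 per group. STAG2 only sites lie at 48.0% and 67.5% in proliferating STAG1 and at 5.67% and 10.2% in quiescent CTCF, and CTCF only sites at 12.7% and 14.9%, and at 74.9% and 88.8%.

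The same contrasts made from the 4 quiescent STAG2 and CTCF libraries gave 21720 shared, 4770 STAG2 only and 20299 CTCF only sites. The share of STAG2 peaks with CTCF exceeded the reverse by 25.6 points, the summit distance between antibodies exceeded that within them by 10.8 bp, and the gene end share of STAG2 peaks without CTCF exceeded that of CTCF peaks without STAG2 by 19.9 points. All 3 had the sign found in proliferating cells. The quiescent lists differed more in length (log2 ratio of STAG2 over CTCF peaks -0.749). In proliferating cells the first and the last of the 3 changed when lists were limited to 20000 peaks, as given above. The difference between the states was not tested.

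Over the 21883 protein-coding genes, 54.6% had STAG2 and 50.1% had CTCF at an end in both libraries, 46.1% had both, 3.54% (774 genes) had STAG2 and no CTCF peak, 1.98% (433) had CTCF and no STAG2 peak, and 35.2% had neither. A site of the matching class lay at an end of 730 of the 774 and 393 of the 433. Genes of growth factor response were mostly occupied by both proteins, but so were genes of other lists. Both were at 17 of 20 housekeeping metabolism genes (85.0%) and at 19 of 22 CDK inhibitor and growth arrest genes (86.4%). All 20 AP-1 and immediate early genes and 19 of 20 genes of MAP kinase feedback had both. Egr1, an immediate early zinc finger gene, had STAG2 folds of 35.9 and 34.0 and CTCF folds of 57.4 and 63.4. Dusp1, a MAP kinase phosphatase gene, had 43.8 and 34.7, then 55.5 and 55.9. Of 20 TEAD and YAP targets 18 had both, with Ccn1 at 43.7 and 41.4, then 48.2 and 41.0.

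In the basal urothelium and adhesion list STAG2 was at 16 of 20 genes and CTCF at 10. Differences between the antibodies within a list were not tested. Krt5, the keratin of basal cells, had STAG2 folds of 21.3 and 21.1 and a CTCF peak in 1 library, with a fold of 4.99. Krt17 had 15.5 and 11.0, and 4.49 in 1 CTCF library. Krt5 and Krt17 were picked after their values had been seen. Cd44, a hyaluronan receptor gene, had a STAG2 only site with 20.4 and 9.25 (chromosome 2, 102900469 to 102901888), and Krt14, the keratin partner of Krt5, had 5.49 and 7.49. Of the 20 genes 10 had both proteins and 3 had neither. Itga6, an integrin gene, had both, with STAG2 folds of 29.3 and 23.3 and CTCF folds of 37.4 and 34.4. Ngfr had 42.7 and 30.7, then 52.0 and 57.7, and Dst 5.37 and 4.91, then 18.5 and 27.0. Of the genes of this list 2 (10.0%) had STAG2 and no CTCF peak, against 3.54% of all genes. In the urothelial differentiation list each antibody was at 14 of 18 genes (77.8%). Upk3b, which encodes a uroplakin, had 59.8 and 44.8 for STAG2 and 66.4 and 68.4 for CTCF, Cdh1, the E-cadherin gene, had 74.1 and 50, then 48.9 and 46.6, and Krt20 had a STAG2 only site with 11.8 and 8.16.

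Among cell cycle genes STAG2 was at 36 and CTCF at 30 of 40 G1/S genes, and at 31 and 23 of 40 G2/M genes, beside the 54.6% and 50.1% of all genes. The genes with STAG2 and no CTCF peak were 3 (7.50%) and 2 (5.00%), against 3.54% of all. Chaf1b, a histone chaperone gene, had both, with 55.4 and 39.9, then 55.4 and 64.9. Gmnn, which encodes geminin, an inhibitor of replication licensing, had a STAG2 only site with 10.0 and 11.7, and Rrm1, a ribonucleotide reductase subunit gene, one with 6.49 and 5.93. Mcm6, a subunit of the replicative helicase, had a CTCF only site with 7.38 and 9.40. In the G2/M list Ccnb2 and Bub1 had STAG2 only sites with folds up to 6.47. Cdc6 and Gata3 met the gene rule for STAG2 without CTCF but had no STAG2 only site. At Cdc6, peaks of 37.1 and 23.3 for STAG2 and 37.5 and 25.7 for CTCF lay near its 3' end, and of these the first alone reached into the window.

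Of the other lists, Hox genes had STAG2 at 28 and CTCF at 24 of 39, imprinted genes at 12 and 8 of 19, cohesin and CTCF genes at 15 and 12 of 24, CDK inhibitors and growth arrest genes at 21 and 19 of 22, and housekeeping metabolism at 18 and 17 of 20. Igf2r, the gene of an imprinted receptor that clears IGF2, had a STAG2 only site with 14.5 and 17.0. Stag2 itself had both proteins, with 33.7 and 31.7, then 47.7 and 40.3. The clustered protocadherins had CTCF at 23 (40.4%) and STAG2 at 21 (36.8%) of 57. The protocadherins with STAG2 were all of the gamma cluster. Many of them had the same folds, as Pcdhga1 and Pcdhgc5 with 3.67 and 5.67, then 15.7 and 16.7. These counts are therefore of genes and not of separate peaks. Urothelial transcription factors had STAG2 at 15 (83.3%) and CTCF at 14 (77.8%) of 18. Olfactory receptors had 9 (0.814%) and 12 (1.08%) of 1106. Peaks do not measure expression, so the identity of the cells could not be checked against RNA. Markers of other cell types also had both proteins, at 7 of 15 fibroblast, 4 of 16 immune and 8 of 16 neuron markers, beside 46.1% of all protein-coding genes. The fibroblast and neuron shares lay near that of all genes and the immune share below it. These differences were not tested. A peak in a population of cells does not show in how many cells the protein was bound.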

How the data were processed

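ChIP-seq for STAG2 and CTCF in proliferating NU1 cells was taken from 1 deposited peak list per library. BWA, Picard, MACS2, HOMER, bcl2fastq and the build mm10 are listed in the submitters' processing notes, and their versions are not given in the sources used here. For each peak the authors deposited a fold enrichment over background (a ratio), -log10 p and q-values and the summit. How the libraries were normalised, and whether the background was input or IgG, was not settled. The lists hold no read counts, so the depth is unknown.

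Peaks matched when they shared at least 1 bp, and sites were connected sets of matching peaks over the 4 libraries. At a site the strongest peak of a library gave its fold and summit. Genes and promoters came from RefSeq tables of GRCm38.p6, with 17491 of 21883 protein-coding genes in the promoter table, which has no entry on chromosome 18. No genome was used, so motifs outside promoters were not analysed here. Libraries were compared by exact permutation tests (Python 3.11.15, SciPy 1.17.1, pandas 2.3.3, numpy 2.4.6, matplotlib 3.10.9), and the matching was tested on simulated lists. Named per class were the 10 highest sites at gene ends and the highest of the genome, the 5 sites with the largest rank difference in each direction, the 5 stretches with most sites, and up to 4 genes per list and kind of occupancy, with further list genes chosen after their values were seen. Some genes that this rule names are not reported here. Of the symbols written in the 18 lists, 3 were not found. Sites, lists and comparisons were chosen with earlier results of these data known.

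Alternatives were the overlap rule (50% of the shorter peak, or summits within 100 bp), a -log10 q of at least 5, 20000 peaks per list, no sex chromosomes, windows of 2 kb, each library left out, and the replicate number as a block. Alternatives added after seeing the data were 20000 peaks for 1 antibody alone, starts in place of gene ends (with and without chromosomes that have no promoter) and, for the core, its direction, the distance limit and sites with 1 peak per library.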

Additional observations from a re-analysis of the deposited data

How the results depend on the processing

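Over 14 results and 138 alternative values, 106 stayed within the limits set, 30 moved and 2 reversed. For a tested difference the limits were only its direction and its side of 0.05, which 2 libraries against 2 cannot pass, so its size could change within them. The difference in sharing, 11.3 points, was 0.305 with 20000 peaks in every library, 57.7 with 20000 STAG2 peaks and whole CTCF lists, and 4.23 to 18.1 when each library was left out. It moves with list length, since a match counts for both lists. The gene end difference, 6.24 points, was 23.1 with 20000 peaks, 17.2 with 20000 CTCF peaks and whole STAG2 lists, and 11.1 at -log10 q of 5 or more. It was 4.64 with windows of 2 kb and 4.51 to 10.2 with a library left out. The excess summit distance, 9.75 bp, was 5.25 with summits within 100 bp and 5.50 to 15.5 with a library left out, the STAG1 difference of 44.0 points was 11.4 and 22.0 without a STAG2 library, and the offset of 19 bp was 8.50 at cores against the gene. Counts were held to 1.5 times and untested values to the SD between replicates. The reversals came with 20000 STAG2 peaks and whole CTCF lists, where the gene end share of STAG2 peaks without CTCF less that of CTCF peaks without STAG2 was -1.41 points, and with 20000 CTCF peaks and whole STAG2 lists, where the share of STAG2 peaks with CTCF less the reverse was -46.9 points. Both settings were chosen after seeing the data, and fewer peaks of 1 antibody leave fewer to match. The first gave 14659 shared, 831 STAG2 only and 24353 CTCF only sites, the second 13921, 17227 and 1378. With 20000 peaks in every library there were 10467, 4194 and 4284, and 3822 genes had both proteins, 1835 STAG2 alone and 699 CTCF alone. The share of shared sites called again in quiescent STAG2 exceeded that of STAG2 only sites by 35.4 points, and by 32.2 with summits within 100 bp, 17.6 with 20000 peaks, 28.5 when peaks of -log10 q under 5 were dropped, 8.37 with 20000 STAG2 peaks and 20.8 with 20000 CTCF peaks.

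When each library was left out in turn, that difference ran from 29.6 to 56.3 points, STAG2 only sites from 7801 to 14062, CTCF only sites from 15056 to 22524, genes with STAG2 alone from 1012 to 1353 and with CTCF alone from 621 to 692, since 1 library less is then needed or searched. The rank correlation within antibodies less between ran from 0.27 to 0.35. With the replicate number as a block (replicate block), the difference in sharing was 11.3 points (exact sign-flip permutation p = 0.5) and no call changed. Same-numbered libraries were slightly more alike than others (mean rho of the fold 0.57 against 0.54), and the labels name no shared batch, so the numbers were not taken to pair them. The number of peaks has no value under the overlap rules or at 20000 peaks. Unknown read depth limits all calls, since a site without a peak may hold binding below the caller's threshold.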

Other observations

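On the X chromosome, 133 STAG2 only sites stood beside 299 shared sites, so 30.8% of these STAG2 sites were without CTCF. On the autosomes this share ran from 16.3% on chromosome 19 to 24.7% on chromosome 13. The share of CTCF only sites among CTCF sites was 33.7% on the X chromosome, within the range of 30.3% to 39.9% over the autosomes. On the Y chromosome 18 CTCF only sites stood beside 7 shared sites. No test was made of these values, which were picked after they had been seen.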
